A study of Mus musculus with 6 samples.

Results

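The 8 genes described here belong to the system that writes, maintains and removes DNA methylation in the mouse. They are the DNA methyltransferases Dnmt1, Dnmt3a and Dnmt3b, the maintenance partner Uhrf1 with its paralog Uhrf2, and the dioxygenases Tet1, Tet2 and Tet3. They were taken by gene symbol from the 41079 genes of an RNA sequencing table, and all 8 were found. The cells were D10 T cells, described in the labels as a cloned CD4+ helper T cell line from mouse; Cd4 itself was near 0 in 4 of the 6 libraries, and that all libraries hold the same clone was not tested. Non-acclimated cells stayed at 37°C and cold-acclimated cells were kept at 26°C, both for 24 h and with no other treatment or genetic change, with 3 libraries per temperature. RNA was poly(A)-selected, and levels are given as TPM, that is, reads divided by gene length and scaled so that the genes of every library add up to 1000000.

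In dividing cells, the copied DNA strand starts out unmethylated at CG dinucleotides (CpG sites). UHRF1 recognises these half-methylated sites behind the replication fork and brings DNMT1, which methylates the new strand, whereas DNMT3A and DNMT3B place methyl groups on sites that had none. TET enzymes oxidise 5-methylcytosine, which allows its loss by dilution or by base excision. In helper T cells, this system acts at cytokine and lineage genes such as Il4, Ifng and Foxp3. The libraries measure RNA only, and methylation itself was not part of the data.

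The libraries held between 16899628 and 31290854 reads, counted back from the TPM values. The T cell marker list summed to between 3528 and 5002 TPM in every library, while both CD8 markers together reached at most 0.225 TPM. Single T cell markers differed more. In non-acclimated and cold-acclimated replicate 2, Cd3d was at 64.3 and 78.6 TPM, and at 240 to 332 TPM in the other libraries. Cd28 was at 7.35 and 5.61 TPM in that pair and at 27.9 to 54.5 TPM in the others. The libraries with replicate number 3 also stood apart at both temperatures. Cd4, which defines the labelled cell type, was at 310 TPM in the non-acclimated and 328 TPM in the cold-acclimated replicate 3, and at most 1.30 TPM in the other 4 libraries. The erythroid markers, nearly all Hba-a1, summed to 487 and 474 TPM in the replicate 3 pair and to between 61.3 and 190 TPM elsewhere, with 3 of 6 at 0 throughout. The macrophage and monocyte markers summed to 11.6 and 14.9 TPM there, nearly all Lyz2 (11.6 and 14.8 TPM), and to at most 1.62 TPM elsewhere. Every other marker of that list was at most 0.134 TPM in any library. The B cell markers summed to between 0.948 and 3.62 TPM in all libraries. Cold-acclimated replicate 3 also differed from the other cold-acclimated libraries in its cell division genes, as described beside the results. These features of the replicate 2 and replicate 3 libraries were given by their values, and their part in the results was not tested.

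Dnmt1, Uhrf1 and Uhrf2 were lower in cold-acclimated cells, and the de novo and TET genes showed no such common direction. Uhrf1 and Uhrf2 fell, to 0.335 and 0.325 of their 37°C means, and Dnmt1 had the lowest ratio of means, 0.275, with a p at the threshold. Tet2 was higher at 26°C within each replicate number without passing the test. Dnmt3a and Tet3 lay near the shift shared by all genes, and Tet1 and Dnmt3b were too low for the test. A gene was tested where its mean TPM was at least 1, which 6 of the 8 and 12227 genes in all passed. The main fit was limma on log2(TPM + 1) with no term for the replicate number, and fits with that term are given below. A gene was called where it gave both an adjusted p under 0.05, by Benjamini-Hochberg, and a difference of 1 or more in log2. Of the 6 tested, 2 were called lower, beside 16% of all tested genes, and 0 were called higher, beside 2.63% of all tested genes. By the limma adjusted p alone the counts were also 2 and 0, beside 17.4% of genes lower and 3.3% higher. At an unadjusted limma p under 0.05 there were 3 lower and 0 higher. Limma's voom on the recovered reads called 0 in either direction, beside 9.18% of genes lower and 6.27% higher, with 3 lower and 1 higher at an unadjusted p under 0.05. The share of all tested genes at an unadjusted p was not computed, so the unadjusted counts cannot be read as a result about the 8 genes. Values of 3 of the 6 did not overlap between the temperatures, all lower at 26°C, and the same held for 31.4% of all tested genes, with another 9.69% higher without overlap. Over all tested genes, the median of the log2 fold changes was -0.34 as deposited and 0.02 after median of ratios scaling, in which each library is divided by the median ratio of its genes to their average over libraries. In bulk RNA, a smaller share of dividing cells and less of a transcript per cell cannot be told apart. Changes are also given relative to the median of all genes.

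**Figure D1:**
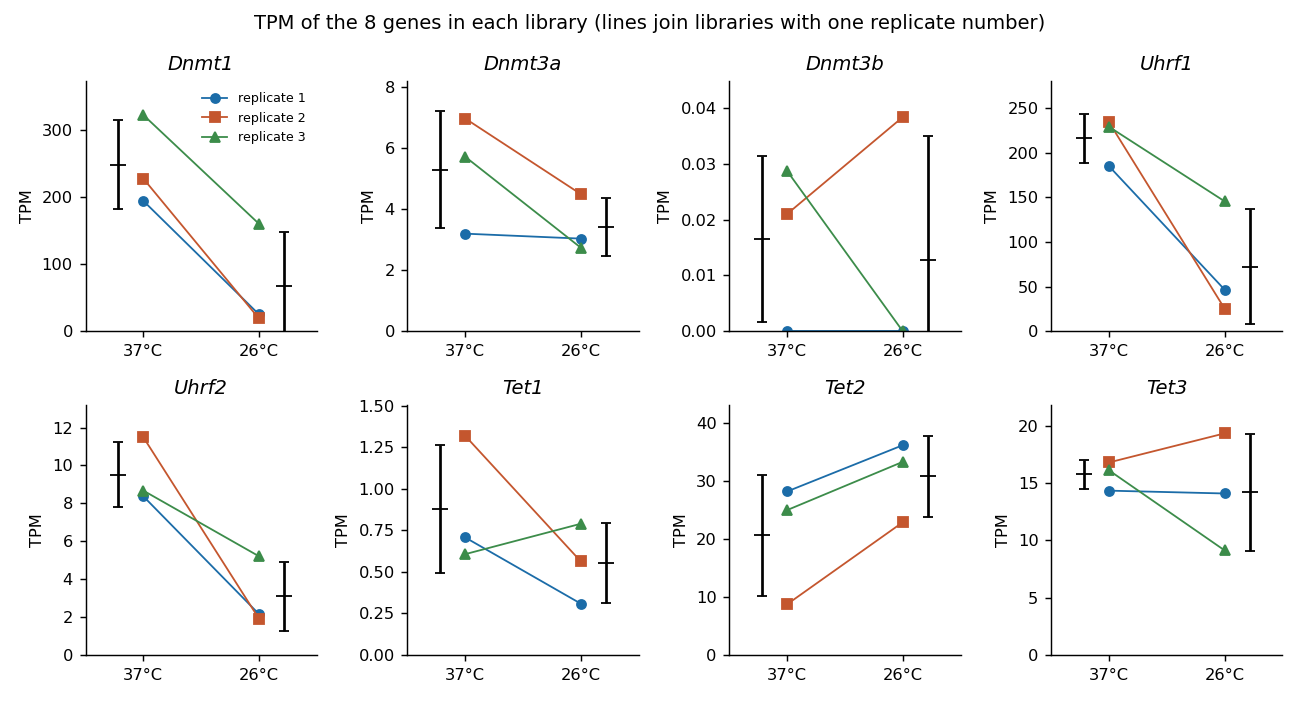
TPM (y axis, linear from 0) of each of the 8 genes in the 3 libraries at 37°C and the 3 at 26°C, with lines joining libraries of the same replicate number and bars giving mean ± SD (n = 3, cut at 0). Dnmt1, Uhrf1 and Uhrf2 are lower in every 26°C library than in any 37°C library, with replicate 3 the highest of the 26°C points, and Tet2 is higher at 26°C on all 3 lines.

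Dnmt1, the maintenance methyltransferase (ENSMUSG00000004099, GRCm39 chr9:20818501-20871084, minus strand), was at 195, 228 and 323 TPM in non-acclimated replicates 1, 2 and 3. In the cold-acclimated libraries it was at 25.2, 19.0 and 160 TPM, from 1344, 1055 and 10087 reads. All 26°C values lay below all 37°C values, but cold-acclimated replicate 3 was far closer to the 37°C range than its 2 fellow libraries. The level at 26°C was 13%, 8.35% and 49.7% of the 37°C level within replicates 1, 2 and 3. The group means were 249 ± 66.6 TPM at 37°C and 68.3 ± 79.9 TPM at 26°C (SD, n = 3). The log2 fold change was -2.47 (SE 0.73, 95% confidence interval -4.17 to -0.77), or -2.14 relative to the median of all genes, and 1.46% of tested genes had a lower one. Its limma adjusted p, by Benjamini-Hochberg, was 0.050 and lay just above the threshold, so Dnmt1 was not called. With the replicate number as a term the limma adjusted p was 0.0103, and without cold-acclimated replicate 3 the log2 fold change was -3.41 with a limma adjusted p of 0.00246, so both fits called it lower.

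Uhrf1, which reads half-methylated CpG sites and recruits DNMT1 (ENSMUSG00000001228, chr17:56610405-56630486, plus strand), was at 185, 234 and 229 TPM at 37°C. At 26°C it was at 46.5, 25.2 and 145 TPM. The order of the cold-acclimated libraries was the same as for Dnmt1, with replicate 2 lowest and replicate 3 highest, and the groups did not overlap. Means were 216 ± 27.1 TPM and 72.4 ± 64.2 TPM (SD, n = 3), and the log2 fold change was -1.93 (SE 0.57), or -1.59 relative to all genes, with a limma Benjamini-Hochberg adjusted p of 0.0498. That call lay just below the threshold, as the missed call of Dnmt1 lay just above it. After median of ratios scaling the log2 fold change was -1.53 and the limma adjusted p 0.0800, which ended the call, while the replicate term alone gave a limma adjusted p of 0.0178.

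Uhrf2, the paralog of Uhrf1, which binds the same kind of sites (ENSMUSG00000024817, chr19:30007920-30071126, plus strand), was expressed far below Uhrf1. It was at 8.37, 11.5 and 8.67 TPM at 37°C and at 2.16, 1.92 and 5.21 TPM at 26°C, from 61 to 369 reads per library. Its groups did not overlap either, and replicate 3 was again the highest at 26°C. Means were 9.51 ± 1.72 TPM and 3.09 ± 1.84 TPM (SD, n = 3). The log2 fold change was -1.44 (SE 0.36), or -1.10 relative to all genes, with a limma Benjamini-Hochberg adjusted p of 0.0312. Median of ratios scaling gave -1.11 with a limma adjusted p of 0.0565 and ended the call, and the replicate term gave a limma adjusted p of 0.0183.

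With the replicate term, 3 of the 6 tested genes were called lower, Dnmt1, Uhrf1 and Uhrf2, beside 21.9% of all tested genes, and 0 higher, beside 3.75%. With median of ratios scaling and no replicate term, 0 of the 6 were called in either direction by limma, beside 8.8% of genes lower and 6.56% higher. Unadjusted limma p values under 0.05 were found for all 3 and for Tet2, with no share over all genes computed at that threshold. With scaling and replicate term together, the same 3 were called lower, beside 12.7% of genes, and Tet2 was called higher, beside 8.89% of genes. Leaving out 1 library without the replicate term gave 0 calls, except that Dnmt1, Uhrf1 and Uhrf2 were called lower without cold-acclimated replicate 3, beside 22.3% of all tested genes, and the highest limma adjusted p over all alternatives was 0.147 for Uhrf1 and 0.134 for Uhrf2. Voom on the recovered reads with the replicate term also called these 3 lower and Tet2 higher, beside 15.1% and 9.49% of genes.

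**Figure D2:**
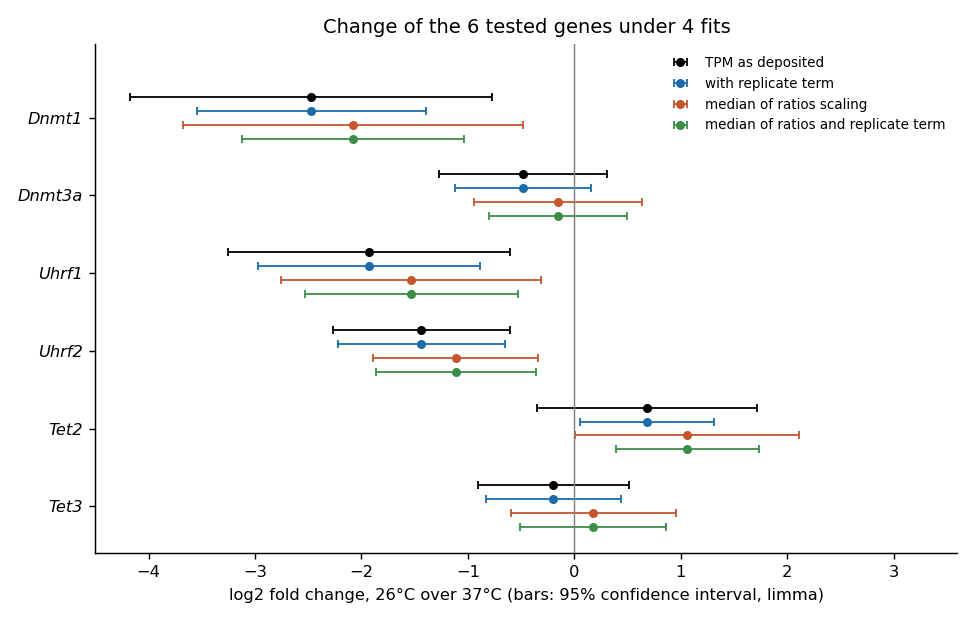
Log2 fold change of 26°C over 37°C (x axis) with its 95% confidence interval from limma for the 6 tested genes, under 4 fits: TPM as deposited, with the replicate number as a term, after median of ratios scaling, and with both. The intervals of Dnmt1, Uhrf1 and Uhrf2 lie below 0 in all 4 fits, those of Dnmt3a and Tet3 include 0 in all 4, and that of Tet2 lies above 0 in 3 of them.

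The sequence around 1 listed transcription start is shown for each of the 3 lower genes, because their levels moved together over the libraries. That of Tet2 is shown as the gene with the opposite sign. Each is the RefSeq window with the most CpG sites for that gene, from 250 bases before the start to 50 after it, 5′ to 3′ on the gene's strand. The letters come from the GRCm38.p6 table and were each found once, unchanged, in GRCm39: chr9:20863870-20864169 (minus) for Dnmt1, chr17:56611063-56611362 (plus) for Uhrf1, chr19:30007663-30007962 (plus) for Uhrf2 and chr3:133250102-133250401 (minus) for Tet2. Capitals mark matches to the E2F-type words TTTCCCGC, TTTCGCGC, TTTGCCGC and TTTGGCGC, searched on both strands. E2F factors are known to act at genes of DNA replication.
Dnmt1: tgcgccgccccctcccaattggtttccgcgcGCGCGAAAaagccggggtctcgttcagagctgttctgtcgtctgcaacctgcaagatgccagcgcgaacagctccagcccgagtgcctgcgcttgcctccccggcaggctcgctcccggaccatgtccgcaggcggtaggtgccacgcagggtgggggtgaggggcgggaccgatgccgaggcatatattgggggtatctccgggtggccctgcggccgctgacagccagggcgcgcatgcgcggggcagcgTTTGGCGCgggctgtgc
Uhrf1: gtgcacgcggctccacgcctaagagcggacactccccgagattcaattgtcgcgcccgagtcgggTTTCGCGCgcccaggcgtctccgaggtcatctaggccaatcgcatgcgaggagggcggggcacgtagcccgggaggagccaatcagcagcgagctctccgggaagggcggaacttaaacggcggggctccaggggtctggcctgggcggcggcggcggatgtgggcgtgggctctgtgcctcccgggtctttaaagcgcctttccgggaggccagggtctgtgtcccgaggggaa
Uhrf2: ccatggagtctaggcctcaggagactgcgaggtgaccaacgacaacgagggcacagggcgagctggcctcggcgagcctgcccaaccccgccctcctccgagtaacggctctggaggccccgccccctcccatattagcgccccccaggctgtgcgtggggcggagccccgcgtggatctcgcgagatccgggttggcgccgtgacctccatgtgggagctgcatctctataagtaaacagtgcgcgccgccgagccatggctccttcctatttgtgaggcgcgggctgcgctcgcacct
Tet2: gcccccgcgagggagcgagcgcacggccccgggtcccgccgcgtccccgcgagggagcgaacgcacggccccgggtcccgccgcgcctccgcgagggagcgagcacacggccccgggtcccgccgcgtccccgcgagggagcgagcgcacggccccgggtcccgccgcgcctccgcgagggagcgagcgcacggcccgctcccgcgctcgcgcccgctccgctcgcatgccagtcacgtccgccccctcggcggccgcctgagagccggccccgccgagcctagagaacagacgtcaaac
The printed Dnmt1 window held 2 such words, starting at base -219 and base 34 from its listed start, and the printed Uhrf1 window held 1, at base -185. Dnmt1 had 3 windows and Uhrf1 had 2, and those not printed held no such word. The printed windows of Dnmt1, Uhrf1 and Tet2 lie wholly inside the gene spans given for them, and which start these cells used was not tested. The windows of the other 6 genes held none. A word was present in 2 of the 8 genes and in 2.61% of the 27025 genes with a window, while 10 of 22 DNA replication genes and 1 of 13 mitosis genes with a window had one. The words are rich in G and C, which made up a median of 69.7% of the windows of the 8 genes and 52.7% of all windows. The shares were not matched for this. The word CCAAT, on either strand, occurred 3 times in the Dnmt1 window, 2 times in that of Uhrf1 and in neither of the others shown, and in 41.1% of all genes. The printed windows, picked for the most CpG sites, held 33, 33, 28 and 57 of them for Dnmt1, Uhrf1, Uhrf2 and Tet2. The median was 7 over all 32851 windows, which were not picked in this way. The windows not printed held 12 and 2 CpG sites for Dnmt1 and 12 for Uhrf1. These matches describe letters and not binding.

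Over the 6 libraries, log2(TPM + 1) of Dnmt1 correlated with that of Uhrf1 (Pearson's r = 0.986) and of Uhrf2 (r = 0.955), and Uhrf1 with Uhrf2 (r = 0.965). These values describe 6 libraries in 2 temperature groups that share depth and scaling, and include the difference between the groups. The ratio of 2 genes within a library does not depend on scaling. The log2 ratio of Uhrf1 to Dnmt1 was -0.08, 0.04 and -0.50 at 37°C and 0.88, 0.40 and -0.14 at 26°C. It was higher at 26°C within 3 of 3 replicate numbers, by 0.96, 0.37 and 0.36, so that Dnmt1 had the larger difference of the 2 genes in each. The mean difference was 0.56 with a two-sided exact permutation p of 0.3 (0.6 adjusted over the 3 ratios tested), where 0.1 is the smallest p that 3 against 3 libraries allow. It was 0.31 without cold-acclimated replicate 1. The log2 ratio of Uhrf2 to Uhrf1 was -4.46, -4.35 and -4.72 at 37°C and -4.43, -3.72 and -4.80 at 26°C. It differed by 0.19 (exact permutation p = 0.8, also 0.8 adjusted), and by -0.11 without cold-acclimated replicate 2.

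Dnmt3a, the de novo methyltransferase detected in these cells (ENSMUSG00000020661, chr12:3851559-3964442, plus strand), was at 3.20, 6.97 and 5.72 TPM at 37°C and at 3.03, 4.49 and 2.74 TPM at 26°C. The groups overlapped, and the level within replicates 1, 2 and 3 was 94.9%, 64.5% and 47.9% of that at 37°C. Replicate 3 thus differed most, unlike for Dnmt1, Uhrf1 and Uhrf2. Means were 5.29 ± 1.92 TPM and 3.42 ± 0.940 TPM (SD, n = 3). The log2 fold change of -0.48 (SE 0.34, 95% confidence interval -1.27 to 0.31, limma Benjamini-Hochberg adjusted p = 0.344) was -0.14 relative to all genes and became 0.18 after quantile normalization. Dnmt3b, the other de novo enzyme (ENSMUSG00000027478, chr2:153491332-153529650, plus strand), had 0, 1 and 2 reads at 37°C and 0, 2 and 0 reads at 26°C. Its level stayed below the TPM that 3 reads give, 0.0431 to 0.0757 depending on the library, so no fold is given.

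The Dnmt1 level was 60.9, 32.7 and 56.5 times that of Dnmt3a at 37°C. At 26°C it was 8.32, 4.24 and 58.7 times that of Dnmt3a, which left cold-acclimated replicate 3 within the 37°C range. As a share of summed methyltransferase TPM, Dnmt3a took 1.61%, 2.96% and 1.74% at 37°C and 10.7%, 19.1% and 1.68% at 26°C. These comparisons of levels rest on gene length. The length behind the deposited Dnmt3a values was 24460 bases, 2.51 times that of its canonical GENCODE transcript, and with canonical lengths Dnmt1 was 25.2, 13.6 and 23.4 times Dnmt3a at 37°C and 3.44, 1.76 and 24.3 times at 26°C.

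Tet2, a dioxygenase that oxidises 5-methylcytosine and is often mutated in blood cancers (ENSMUSG00000040943, chr3:133169438-133250882, minus strand), was at 28.2, 8.75 and 25.0 TPM at 37°C and at 36.2, 22.9 and 33.3 TPM at 26°C. Replicate 2 was the lowest library at both temperatures, and its cold-acclimated level overlapped the 37°C values. Within replicates 1, 2 and 3 the level at 26°C was 1.28, 2.62 and 1.33 times that at 37°C, higher in 3 of 3. Means were 20.7 ± 10.4 TPM and 30.8 ± 7.0 TPM (SD, n = 3). The log2 fold change was 0.68 (SE 0.44, 95% confidence interval -0.35 to 1.71, limma Benjamini-Hochberg adjusted p = 0.304), or 1.02 relative to all genes, and 90.9% of tested genes had a lower one. The replicate term gave a limma adjusted p of 0.0839. Tet2 was called higher with median of ratios scaling and the replicate term (log2 fold change 1.06, limma adjusted p = 0.0326) and with limma's voom on the recovered reads with that term (1.08, limma adjusted p = 0.0203).

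Tet3, the TET enzyme best known from the zygote (ENSMUSG00000034832, chr6:83339355-83434190, minus strand), was at 14.3, 16.8 and 16.1 TPM at 37°C and at 14.1, 19.3 and 9.11 TPM at 26°C. The 26°C values lay on both sides of the 37°C range, and the level was lower within replicate 3 and close to or above 37°C within the other 2. Means were 15.7 ± 1.27 TPM and 14.2 ± 5.10 TPM (SD, n = 3). The log2 fold change was -0.20 (SE 0.31, 95% confidence interval -0.91 to 0.52, limma Benjamini-Hochberg adjusted p = 0.682) as deposited and 0.18 after median of ratios scaling. Tet1, the member best known from embryonic stem cells (ENSMUSG00000047146, chr10:62640349-62723242, minus strand), was at 0.706, 1.32 and 0.606 TPM at 37°C and at 0.308, 0.562 and 0.789 TPM at 26°C, from 49 to 199 reads. Its groups overlapped, and without the minimum of 1 TPM limma gave a log2 fold change of -0.27 with a Benjamini-Hochberg adjusted p of 0.481.

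The log2 ratio of Tet3 to Tet2 was -0.98, 0.94 and -0.64 at 37°C and -1.36, -0.25 and -1.87 at 26°C. It was lower at 26°C within 3 of 3 replicate numbers, by -0.38, -1.19 and -1.24, with a mean difference of -0.94 and a two-sided exact permutation p of 0.4 (0.6 adjusted over the 3 ratios). An exact sign-flip test over the 3 replicate numbers gave p = 0.25, the smallest it allows. The mean difference was -0.35 without non-acclimated replicate 2 and -1.39 without cold-acclimated replicate 2, the extremes when 1 library was left out, and -0.58 without cold-acclimated replicate 3. By TPM as deposited, Tet2 made up 65.3%, 32.6% and 60.0% of the summed TET level at 37°C and 71.6%, 53.5% and 77.1% at 26°C. With canonical transcript lengths, Tet2 made up 48.2%, 19.5% and 42.5% at 37°C and 55.3%, 36.2% and 62.8% at 26°C. Which of Tet2 and Tet3 was the more abundant therefore changed with the length used in non-acclimated replicates 1 and 3 and in cold-acclimated replicate 2, whereas the Tet2 share was higher at 26°C within each replicate number with both lengths.

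**Figure D3:**
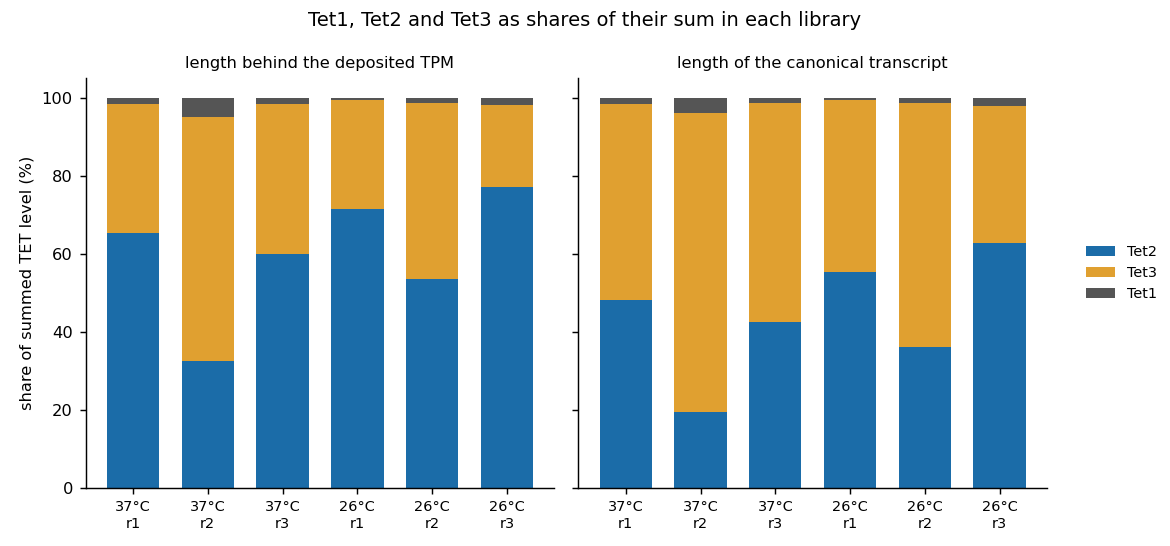
Tet1, Tet2 and Tet3 as percent of their summed level (y axis) in each of the 6 libraries, with the gene length behind the deposited TPM on the left and that of the canonical transcript on the right. The Tet2 share is higher at 26°C than at 37°C for every replicate number in both panels, and replicate 2 has the lowest Tet2 share at each temperature.

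The summed TET level was 43.2, 26.8 and 41.7 TPM at 37°C and 50.6, 42.8 and 43.2 TPM at 26°C. Dnmt1 made up 97.0% to 98.4% of the summed methyltransferase level in the non-acclimated libraries and 89.3%, 80.8% and 98.3% in cold-acclimated replicates 1, 2 and 3. The sum was 4.58, 8.76 and 7.89 times the TET sum at 37°C and 0.559, 0.551 and 3.78 times at 26°C. The ratio was lower in every cold-acclimated library than in any non-acclimated one, with replicate 3 closest to the 37°C range, and this held with canonical transcript lengths (3.61, 5.70 and 5.98 at 37°C, 0.519, 0.494 and 3.29 at 26°C). By mean TPM at 37°C the order was Dnmt1, Uhrf1, Tet2, Tet3, Uhrf2, Dnmt3a, Tet1 and Dnmt3b. The values of Dnmt1 and Uhrf1 overlapped there, as did those of Tet2 with Tet3 and with Uhrf2. At 26°C the order was Uhrf1, Dnmt1, Tet2, Tet3, Dnmt3a, Uhrf2, Tet1 and Dnmt3b. Values overlapped at 26°C for Uhrf1, Dnmt1 and Tet2, for Dnmt1 and Tet3, and for Dnmt3a and Uhrf2. Both orders rest on the lengths behind the deposited TPM. With canonical lengths, Tet3 stood above Tet2 and Dnmt3a above Uhrf2 at 37°C. At 26°C with these lengths, Dnmt1 stood above Uhrf1 by a difference far smaller than the spread, the values of Tet2 and Tet3 overlapped, and Dnmt3a (7.61, 11.3 and 6.86) lay above Uhrf2 (1.82, 1.62 and 4.4, TPM at canonical length) without overlap.

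Genes of cell division moved with Dnmt1, Uhrf1 and Uhrf2 across the libraries. The summed TPM of 28 DNA replication genes was 2424, 3285 and 4180 at 37°C and 843, 591 and 3415 at 26°C. That of 15 mitosis genes was 3208, 3180 and 2450 at 37°C and 801, 415 and 2337 at 26°C. Cold-acclimated replicate 3 thus stayed near its 37°C partner in both sums, as it was the highest cold-acclimated library for Dnmt1, Uhrf1 and Uhrf2. The median difference in log2(TPM + 1) within replicates 1, 2 and 3 was -1.70, -2.52 and -0.43 for DNA replication and -2.0, -2.82 and -0.01 for mitosis. Within replicate 3 the differences of Dnmt1 (-1.0), Uhrf1 (-0.65) and Uhrf2 (-0.64) were larger in size than both medians and than the -0.24 of all tested genes. Dnmt1 also exceeded both medians in size within replicates 1 and 2, whereas Uhrf2 (-1.57 and -2.10) was below both in size on this scale. Uhrf1 (-1.97 and -3.17) was below the mitosis median in size within replicate 1 and above both within replicate 2. The added 1 makes differences of low genes such as Uhrf2 smaller. By TPM, Uhrf2 at 37°C was 3.88 and 6.0 times its 26°C level within replicates 1 and 2. List medians without the added 1 were not computed, so the place of Uhrf2 beside them rests on this scale.

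**Figure D4:**
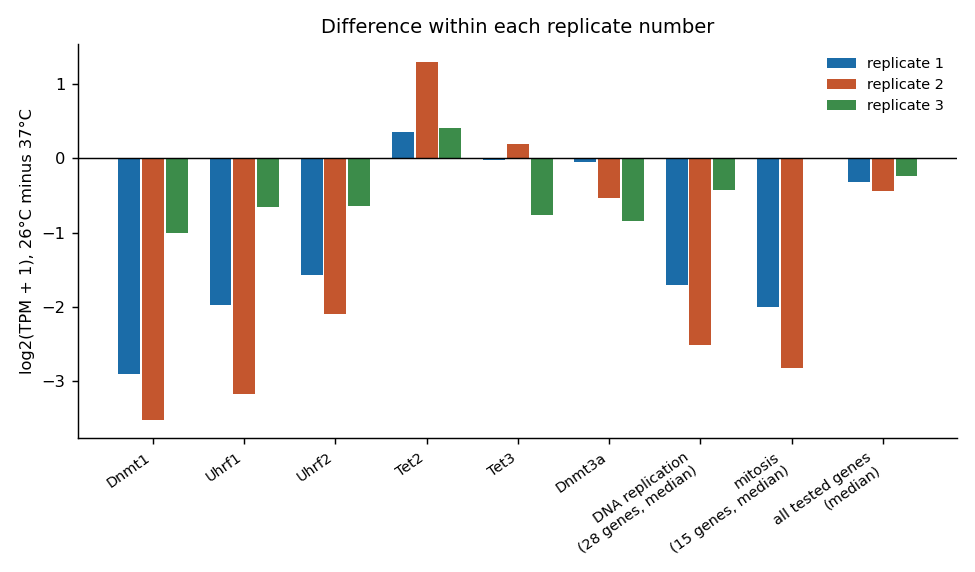
Difference in log2(TPM + 1), 26°C minus 37°C (y axis), within replicate numbers 1, 2 and 3 for 6 genes and for the medians of 28 DNA replication genes, 15 mitosis genes and all tested genes. Dnmt1, Uhrf1 and Uhrf2 are below 0 in all 3 replicates and smallest in size in replicate 3, Tet2 is above 0 in all 3, and the mitosis bar of replicate 3 is at -0.01.

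The limma fit called 6 of the 28 DNA replication genes lower and 0 higher, beside 16% and 2.63% of all tested genes, with a list median log2 fold change of -1.61 beside -0.34 for all tested genes. They included E2f1, a transcription factor of S phase genes (-1.61, limma adjusted p = 0.0246), Gins4 of the replicative helicase (-1.61, limma adjusted p = 0.0304) and Pold1, the catalytic subunit of DNA polymerase delta (-2.44, limma adjusted p = 0.0371). Of the 15 mitosis genes 4 were called lower and 0 higher (median -1.54), among them the kinases Aurkb (-2.14) and Bub1 (-2.29) and the topoisomerase Top2a (-2.58). These counts depended on 1 library and on the fit. Without cold-acclimated replicate 3, 26 of 28 and 15 of 15 were called lower, beside 22.3% of all tested genes (3.75% higher). With the replicate term 20 and 7 were called lower, beside 21.9% of genes, and after median of ratios scaling 1 and 2, beside 8.8% of genes.

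Among 9 partners of maintenance methylation, 3 were called lower and 0 higher, beside 16% and 2.63% of all tested genes, and the list median was -0.60 beside -0.34 for all tested genes. Ehmt1, a histone and LIG1 methyltransferase (-1.46, limma adjusted p = 0.0110), was at 45.2 ± 10.1 TPM at 37°C and 15.6 ± 1.18 TPM at 26°C. Hells, a chromatin remodeler needed for methylation of repeats, fell from 44.0 ± 10.8 to 12 ± 11.8 TPM (-2.15, limma adjusted p = 0.0392), and Lig1, the ligase of Okazaki fragments, from 131 ± 14.7 to 38.0 ± 38.5 TPM (-2.21, limma adjusted p = 0.0418; SD, n = 3). After median of ratios scaling only Ehmt1 was called lower, beside 8.8% of all tested genes. In that fit Usp7, which deubiquitinates UHRF1 and DNMT1 and was chosen after its values were seen, was called higher, beside 6.56%. Usp7 was at 81.8, 83.4 and 132 TPM at 37°C and at 149, 143 and 173 TPM at 26°C.

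A further list held 10 genes of the methyl-CpG-binding domain and zinc finger families, to which the readers of methylated CpG sites belong. Membership in these families does not make each of the 10 a reader. Of the 10, 3 were called lower and 0 higher, beside 16% and 2.63% of all tested genes, with a list median of -0.51 beside -0.34. Zbtb4, a zinc finger reader, was at 8.04, 7.97 and 7.22 TPM at 37°C and at 0.560, 0.447 and 0.568 TPM at 26°C (log2 fold change -2.52, limma adjusted p = 0.00673). Mbd4, a reader that is also a glycosylase, was at 4.84, 5.42 and 3.37 TPM at 37°C and at 0.164, 0.0860 and 0.847 TPM at 26°C (-2.04, limma adjusted p = 0.0106). All 26°C values of both genes were under 1 TPM, and their lowest read counts were 34 for Zbtb4 and 6 for Mbd4. At such levels the 1 added to the TPM makes the log2 fold changes smaller than those of the TPM values. Mbd5 changed by -1.10 (limma adjusted p = 0.0420). Zbtb4 and Mbd4 were also called with median of ratios scaling, with the replicate term and with both, beside 8.8%, 21.9% and 12.7% of all tested genes called lower. Unlike for Dnmt1, Uhrf1 and Uhrf2, Zbtb4 in cold-acclimated replicate 3 was as low as in the other cold-acclimated libraries.

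Of the 13 genes that act with or after TET enzymes 9 could be tested, and 3 were called lower and 1 higher, beside 16% and 2.63% of all tested genes, with a list median of -0.31 beside -0.34. Lower were Neil3, a DNA glycosylase (-2.51, limma adjusted p = 0.0175), Xrcc1, a scaffold of base excision repair (-1.53, limma adjusted p = 0.0195), and Smug1, a uracil glycosylase (-1.28, limma adjusted p = 0.0207). The gene called higher was Gadd45a, a stress response gene linked to demethylation and named after its values were seen, which was at 11.6, 10.7 and 4.96 TPM at 37°C and at 22.2, 28.9 and 17.1 TPM at 26°C (1.28, limma adjusted p = 0.0445). Tdg, the glycosylase that removes the products of TET enzymes and also named after its values were seen, was at 5.88, 13 and 13.9 TPM at 37°C and at 15.8, 24.0 and 19.3 TPM at 26°C. It was not called as deposited (0.86, limma adjusted p = 0.125). After median of ratios scaling it was called higher, without the replicate term (beside 6.56% of all tested genes) and with it (beside 8.89%).

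Of 15 genes that supply the methyl donor or 2-oxoglutarate, the TET co-substrate, 4 were called lower and 0 higher, beside 16% and 2.63% of all tested genes, with a list median of -0.88 beside -0.34. At an unadjusted p under 0.05, limma on TPM gave 4 lower and 0 higher and voom gave 4 lower and 4 higher, with no share over all genes computed. Ahcyl1, a relative of the enzyme that clears S-adenosylhomocysteine, had a log2 fold change of -1.68 (limma adjusted p = 0.00749). D2hgdh, which clears the TET inhibitor D-2-hydroxyglutarate, had one of -2.05 (limma adjusted p = 0.0114), and Mtr, methionine synthase, one of -1.51 (limma adjusted p = 0.0188). Without cold-acclimated replicate 3 there were 7 lower calls in this list, beside 22.3% of all tested genes called lower in that fit. Zbtb4 and Ahcyl1 kept a limma adjusted p under 0.05 whichever library was left out (at most 0.0437 and 0.0451), whereas the other called genes of the lists that the naming rule picked lost it without at least 1 library.

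**Figure D5:**
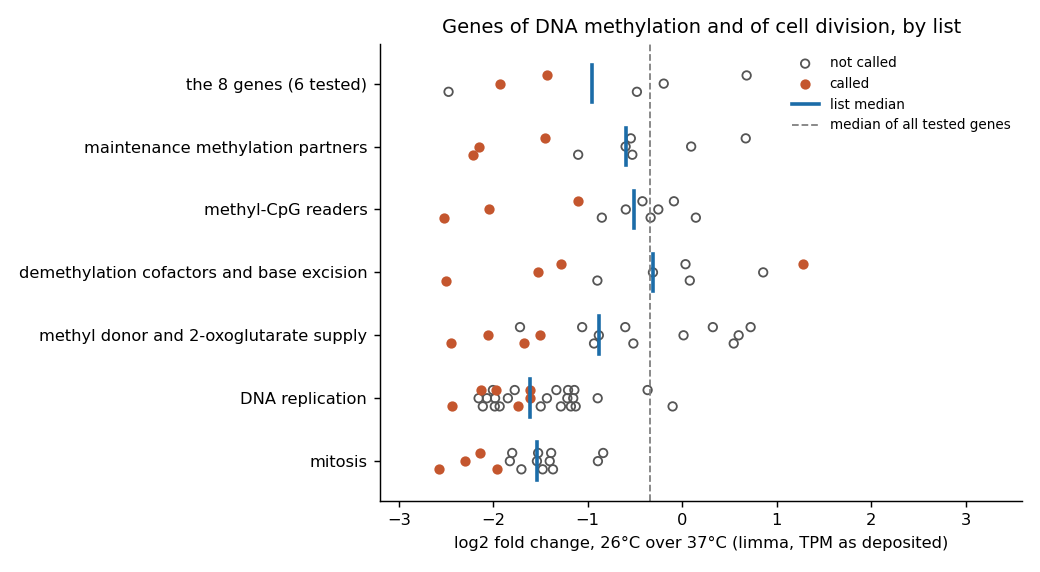
Log2 fold change of 26°C over 37°C (x axis, limma on TPM as deposited) of each tested gene in 7 lists, with called genes filled, blue bars at list medians and a dashed line at the median of all tested genes, -0.34. DNA replication and mitosis genes lie almost wholly to the left of that line, with medians of -1.61 and -1.54, whereas the other lists spread to both sides of it.

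Genes known to be controlled by DNA methylation showed no calls, beside 16% of all tested genes called lower and 2.63% higher. Only 1 and 6 genes of the 2 lists were tested, too few to tell 0 calls from these shares. Of 12 germline genes silenced by promoter methylation 4 were at 0 in all libraries, and all 12 together summed to between 1.08 and 1.88 TPM in each library. Only Sycp3, of the meiotic chromosome axis, reached the minimum for the test (0.12, limma adjusted p = 0.815). Of 11 helper T cell genes with methylation-controlled loci 6 were tested and 0 were called, by limma on TPM or by voom, and 0 had an unadjusted p under 0.05 in either. With voom and the replicate term, 1 was higher at an unadjusted p under 0.05. No share over all genes was computed at that threshold. Il10 had a log2 fold change of 0.87 (limma adjusted p = 0.393), Foxp3 one of -0.52 (limma adjusted p = 0.416) and Il5 one of -0.38 (limma adjusted p = 0.744). The Il10 level in replicates 1, 2 and 3 was 365, 195 and 279 TPM at 37°C and 1418, 473 and 181 TPM at 26°C. Ifng was at 0 in all 6 libraries. Among the other relatives and cofactors of the methyltransferases, 2 of 6 were tested and 0 called, Trdmt1 (-0.14) and Trim28 (0.04), and Dnmt3l and Dnmt3c, relatives of Dnmt3a known from germ cells, were at most 0.273 TPM.

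The genes with the most similar pattern to each tested gene were found by Pearson's r of log2(TPM + 1) over the 6 libraries, as a description with no test. For Dnmt1 they were Dolpp1, Ncapg2 and Psmb8 (r = 0.999, 0.998 and 0.998), for Uhrf1 they included Gm27227 and Cenpw (0.998 and 0.997) and for Uhrf2 Pbk, Vrk3 and Itgb3 (0.998, 0.998 and 0.997). For Dnmt3a they were C030034I22Rik, Yae1d1 and Abcf1 (0.993, 0.978 and 0.977), for Tet2 Phf1, Rab37 and Gm6625 (0.985, 0.977 and 0.974) and for Tet3 Eea1, Egln1 and Slc25a51 (0.991, 0.972 and 0.961). Between the genes described here, Dnmt3a and Tet2 had the lowest r, -0.855.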

How the data were processed

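RNA from 6 D10 T cell libraries, 3 per temperature, was sequenced as strand-specific paired-end reads. Per the labels, the authors used FastQC 0.11.7, Trimmomatic 0.38, HISAT2 2.1.0 on GRCm39 and featureCounts 1.6.3, and the methods name DESeq2 for their test. The deposited values are TPM, and no source used here names the annotation release or the gene lengths. Reads per gene were recovered from the steps of the TPM values, and all 21195 genes above 0 gave whole numbers (100% within 1e-06 reads). The 6 depths, between 16899628 and 31290854 reads, limit the precision of genes with few reads, and floors of 3 reads cover counting error only.

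Temperatures were compared on log2(TPM + 1) by limma 3.58.1 (R 4.3.3, trended variance). The 12227 genes whose TPM averaged 1 or more were tested, in place of the count test of the methods. The 3 ratios were tested by two-sided exact permutation. The planned ratio of Dnmt3b to Dnmt3a could not be computed, since Dnmt3b was at 0 in 3 libraries. Alternatives were a replicate term, median of ratios scaling, quantile normalization, a pseudocount of 0.1, no minimum, limma's voom on the recovered reads, and leaving out each library. Those for the lists and for canonical transcript lengths were chosen after seeing the data. Deviations from group means correlated at 0.48, 0.50 and 0.51 for equal replicate numbers and at -0.41 to 0.02 for unequal ones, so the libraries are paired by number. The main fit had no replicate term and did not use this pairing, and fits with the term are given beside it. Old and new extraction batches are mentioned in the labels without assigning them, so batches cannot be told apart here, and p-values measure the spread between these libraries.

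Named genes are the 8 genes, the 3 with the smallest p in each of 9 gene lists, and the 3 most correlated with each tested gene, of which 1 is not reported here. Genes named outside this rule, such as Usp7, Gadd45a, Tdg, Ifng, Dnmt3l, Dnmt3c, Cd4, Cd3d, Cd28, Lyz2 and Hba-a1, were chosen after their values were seen. The genes and lists were chosen with earlier results of these data known. Genes sharing a position with the 8 averaged below 1 TPM at both temperatures. Scripts were tested on simulated data. Other values came from Python 3.11.15 with scipy 1.17.1, numpy 2.4.6 and pandas 2.3.3, and figures from matplotlib 3.10.9.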

Additional observations from a re-analysis of the deposited data

How the results depend on the processing

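The number of the 6 tested genes called lower, 2 as reported, was 3 with the replicate block, alone or with median of ratios scaling or voom, 1 after quantile normalization or with a pseudocount of 0.1, and 0 after median of ratios scaling, with no minimum on TPM or with voom; the adjusted p alone gave the same counts. Leaving out 1 library at a time gave 0 to 3, with 3 only without cold-acclimated replicate 3, where 22.3% of all tested genes were called lower. Shares over all genes were not computed for quantile normalization, the pseudocount of 0.1, no minimum or the other fits with 1 library left out. The number called higher was 0, and 1 (Tet2) where the block was combined with scaling or voom. Dnmt1 kept its sign in all 14 alternatives (-3.41 to -1.91), as did Uhrf1 (-2.61 to -1.37), Uhrf2 (-1.78 to -0.81) and Tet2 (0.18 to 1.12). Dnmt3a was 0.18 after quantile normalization. Tet3 was 0.18 after median of ratios scaling, with and without the block, 0.36 after quantile normalization, 0.17 with voom and 0.19 with voom and the block, and 0.068 without cold-acclimated replicate 3, the highest when 1 library was left out (lowest -0.44). The log2 ratio of Uhrf2 to Uhrf1 was -0.11 to 0.44 when 1 library was left out. The cause of these differences was not tested. Over all genes, limma called 1954 lower and 321 higher as deposited, 1076 and 802 after median of ratios scaling, 2679 and 458 with the block, and 1122 and 767 with voom. Dnmt3b and Tet1 were limited by depth and level, and with 3 libraries per temperature the calls of Dnmt1 and Uhrf1 lay at the threshold.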
